A study of Mus musculus with 6 samples.

Results

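SR proteins and heterogeneous nuclear ribonucleoproteins (hnRNPs) are the main RNA-binding regulators of splice site choice, and their transcripts were examined in hematopoietic stem cells (HSCs) with and without IRF1. The genes were taken by symbol, as *Srsf* followed by a number for SR proteins and as any symbol starting with *Hnrnp* for hnRNPs, with a mean of at least 10 normalized counts over the 6 libraries. This gave 32 of the 26264 genes in the table, 11 SR and 21 hnRNP, and every symbol of either pattern reached that mean. Bulk RNA-seq had been performed on HSCs (LSK CD150+ CD48-) sorted from the bone marrow of untreated, 8-week-old female mice, with 1 library per mouse. The 3 WT mice were C57Bl/6, and the 3 *Irf1-/-* mice carried the B6.129S2-Irf1 tm1Mak/J allele in the whole body, so that HSCs lacking IRF1 also came from an environment lacking it. Values are read counts per gene divided by 1 size factor per library, here called normalized counts, and 3 values given for a genotype always stand in the order of mice 1, 2, and 3.

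SR proteins carry arginine- and serine-rich stretches, bind enhancer sequences in exons, and help the U1 and U2 snRNPs find the neighboring splice sites. hnRNPs coat nascent RNA and often oppose SR proteins by masking exons, and several of them also act in RNA export, stability, and translation. Many genes of both families limit their own output through exons that send the transcript to nonsense-mediated decay, and *SRSF2* is a recurrent mutation target in human myelodysplastic syndromes and leukemias.

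*Irf1*, the targeted gene, had 10122, 11120, and 12057.5 normalized counts in WT HSCs and 9267, 9524, and 9287 in *Irf1-/-* HSCs. All 3 *Irf1-/-* values lay below all 3 WT values, at −0.24 on the log2 scale (limma, SE 0.088, adjusted *P* = 0.170), so reads on the gene were still counted in the mutant and its level alone does not identify the genotype. Reads on genes numbered 59658080, 45332573, and 43267486 in WT libraries and 43138521, 57281017, and 45129929 in *Irf1-/-* libraries. The largest axis of variation did not follow genotype, and the next did. Principal component 1 over all genes tested (32.4% of the variance) placed WT mice 1 and 2 with *Irf1-/-* mouse 2 (scores −36.7, −41.9, and −28.8), and WT mouse 3 with *Irf1-/-* mice 1 and 3 (39.2, 37.4, and 30.8). Principal component 2 (24.8%) separated WT mice (37.7, 14.8, and 27.0) from *Irf1-/-* mice (−5.72, −57.6, and −16.2).

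The HSC label was checked against marker genes. *Kit*, the stem cell factor receptor and the most abundant of 10 HSC markers, had 83185, 84043, and 80517 normalized counts in WT HSCs and 77902, 88715, and 79909 in *Irf1-/-* HSCs. *Procr* (0.52, adjusted *P* = 0.0112) and *Fgd5* (0.83, adjusted *P* = 9.13e-05) were higher and *Ly6a* (−0.43, adjusted *P* = 0.0245) lower in *Irf1-/-* HSCs (limma), so the sorted cells differed between genotypes in HSC markers too. The *Ly6a* call was lost without WT mouse 2 (0.0772) and without *Irf1-/-* mouse 1 (0.115) or 3 (0.111), and limma without the trend called none of these markers. *Slamf1*, which encodes CD150, had 3198, 3052, and 2848 normalized counts in WT and 3823, 3412, and 3481 in *Irf1-/-* HSCs. The genotypes did not overlap (log2 fold change 0.24, adjusted *P* = 0.217, limma). Of the 10 HSC markers 7 had a higher and 3 a lower mean (1 lower under quantile normalization). *Cd48*, whose protein the sort selects against, stood between 257 and 431 in the 6 libraries. The globins *Hba-a1* and *Hbb-bs* were listed at 0 in every library. Of the T cell markers *Cd8a* was at or under 3 reads throughout, but *Lck* was counted in all libraries (925 to 1041), as was *Cd79b* of B cells (2521 to 2952). *Prtn3* of myeloid precursors had 6255, 4841, and 6445 in WT and 7608, 7801, and 9879 in *Irf1-/-* HSCs, and *Flt3* of multipotent progenitors had 2656, 1730, and 2865 in WT and 3442, 4476, and 3460 in *Irf1-/-* HSCs. Both were higher in all 3 mutants (log2 fold changes 0.53 and 0.67, adjusted *P* = 0.0334 and 0.0407, limma), although the 8 myeloid markers split into 4 with a higher and 4 with a lower mean. *S100a8* and *S100a9* of mature myeloid cells stood at 1033 and 1246 in WT mouse 3 alone, and between 10.1 and 131 in the other 5 libraries. The *Prtn3* and *Flt3* calls were lost without WT mouse 2 (0.127 and 0.115) and without *Irf1-/-* mouse 1 (0.0610 and 0.0909), 2 (0.0501 and 0.128), or 3 (0.169 and 0.0729), and in limma without the trend (0.330 and 0.358). Of 3 multipotent progenitor markers, only *Flt3* passed in limma. The most abundant, *Cd34*, overlapped between genotypes (log2 fold change 0.16, between 0.05 and 0.24 with a mouse left out, adjusted *P* = 0.495, limma). All 4 stroma markers had a higher mean (3 of 4 without WT mouse 1). Of these, *Col1a1*, *Cxcl12*, and *Cdh5* were scarce, between 4.11 and 116 normalized counts, with adjusted *P* values of 0.707, 0.598, and 0.810 (limma). The most abundant, *Pdgfrb*, had 1308, 1306, and 1000 in WT and 1965, 1587, and 1573 in *Irf1-/-* HSCs. Its genotypes did not overlap, with an adjusted *P* of 0.0638 in limma, 0.0493 in limma after quantile normalization, and 0.0080 in DESeq2. With a mouse left out the adjusted *P* stayed between 0.0812 and 0.247 (limma), and limma without the trend did not call *Pdgfrb*. In bulk samples such as these, fewer cells of a type and less RNA per cell cannot be told apart.

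The mean log2 value was lower in *Irf1-/-* than in WT HSCs for 11 of 11 SR genes (9 of 11 under quantile normalization, which turned *Srsf5* and *Srsf11*) and 19 of 21 hnRNP genes (20 of 21 under median centring, which turned *Hnrnph3*), against 50.4% of the 17404 genes tested. A single member, *Srsf2*, passed an adjusted *P* of 0.05 across all genes in limma. The median log2 fold change was −0.20 for SR and −0.21 for hnRNP genes, and −0.0028 for all genes tested. Among the 984 genes with a mean of at least 10000 normalized counts, a level that 7 SR and 11 hnRNP genes reach, the median was −0.06 over all genes, −0.21 for SR, and −0.23 for hnRNP genes.

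The test was limma, run on log2(normalized count + 1) for the 17404 genes averaging at least 10. At an adjusted *P* under 0.05 and a log2 fold change beyond 0.58, 0 of the 32 genes were called, where 0.96% of all genes tested were called higher and 0.954% lower, and edgeR and DESeq2 on recovered reads also called 0 of the 32. At an adjusted *P* under 0.05 alone, limma placed 1 member lower (background 1.49%) and 0 higher (background 1.73%). After quantile normalization it placed 4 lower (*Srsf2*, *Srsf3*, *Hnrnpa1*, and *Hnrnpab*, background 1.98%), after median centring 4 (*Srsf2*, *Srsf3*, *Hnrnpab*, and *Hnrnpd*, background 2.15%), and among genes with a mean of at least 100 it placed 2 (*Srsf2* and *Hnrnpd*, background 2.502%). Without the trend limma placed 0 lower (background 0.19%). With the same threshold edgeR placed 1 lower (background 1.53%), and DESeq2 placed 7 lower (background 3.77%), *Srsf1*, *Srsf2*, *Srsf3*, *Hnrnpa1*, *Hnrnpa2b1*, *Hnrnpab*, and *Hnrnpd*. DESeq2 gave no adjusted *P* for 4395 of the 17404 genes, and these count as not called in its background. An unadjusted *P* under 0.05 was reached downward by 11 members in limma (34.4%, background 8.07%), 3 SR and 8 hnRNP, and upward by 0 (background 8.38%), and 13 reached it in edgeR (background 8.33%) and 14 in DESeq2 (background 8.83%), all lower. In limma without the trend 7 members reached it downward (background 5.26%). All 3 *Irf1-/-* libraries lay below all 3 WT libraries for 13 of the 32 (40.6%, background 9.27%), 4 SR and 9 hnRNP, and above them for 0 (background 10.6%). The background below WT rises with abundance, to 13.4% of genes with a mean of at least 1000 and 16.4% at 10000, where it was 42.9% of SR and 54.5% of hnRNP genes, and 63.2% of genes at 10000 had a lower mean. These members are not independent measurements, since the same 6 mice gave all of them. The 95% interval of the log2 fold change held no fall as large as the 0.58 threshold for 29 of the 32, the exceptions being *Srsf2*, *Srsf12*, and *Hnrnpa1l2-ps2*.

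**Figure D1:**
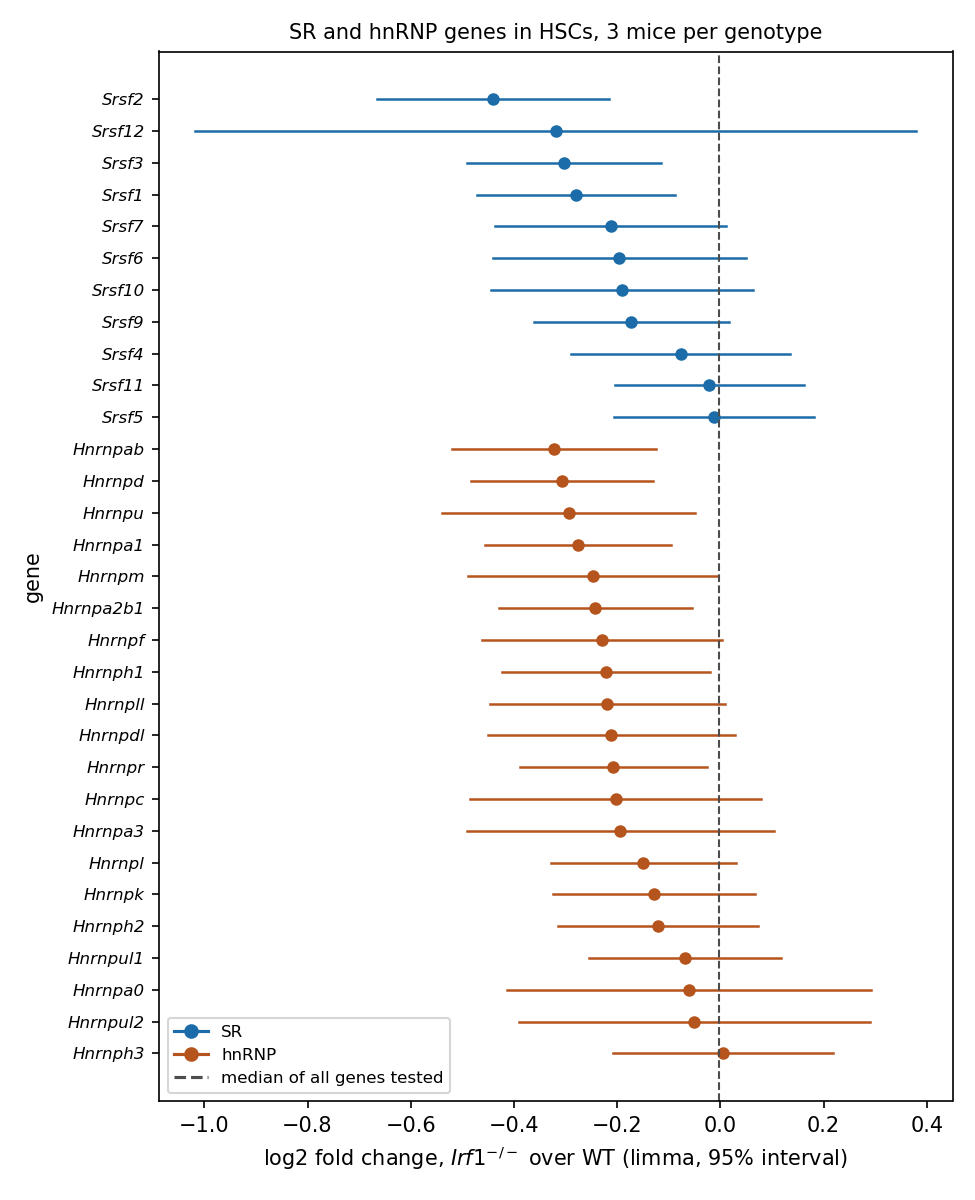
Log2 fold change of 31 SR (blue) and hnRNP (orange) genes, *Irf1-/-* over WT, on the horizontal axis, with points for the limma estimate and lines for the 95% interval (3 mice per genotype). The dashed line is the median of all genes tested, −0.0028, most points lie to its left between −0.44 (*Srsf2*) and −0.012 (*Srsf5*, which quantile normalization turns above 0 together with *Srsf11*), *Hnrnph3* sits at 0.0053, and *Hnrnpa1l2-ps2* is not drawn as its interval runs from −1.79 to 2.16.

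Summed over its 11 genes, the SR family took 0.328%, 0.339%, and 0.304% of all normalized counts in WT libraries and 0.301%, 0.271%, and 0.283% in *Irf1-/-* libraries. WT mouse 3 and *Irf1-/-* mouse 1 were nearly level, and without *Srsf2* the groups overlapped (0.256% in WT mouse 3 and 0.260% in *Irf1-/-* mouse 1). The 21 hnRNP genes took 0.761%, 0.784%, and 0.759% in WT and 0.672%, 0.694%, and 0.673% in *Irf1-/-* libraries. Here the genotypes were well separated, at 0.768% ± 0.0138 against 0.680% ± 0.0124 (mean ± SD, *n* = 3 each). These shares do not depend on the size factors, because the factor of a library cancels within it. The medians of the families differed by 0.012 (SR minus hnRNP, log2). As a yardstick, the mean deviation of each family from the means of its genes was taken per library, *Hnrnpa1l2-ps2* included. The SR minus hnRNP difference of these mean deviations had an SD of 0.09 between replicates. That is a spread of means rather than of medians, and by it the family medians with all mice cannot be told apart. Without WT mouse 3 the difference of the medians was −0.0974, just beyond 0.09.

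**Figure D2:**
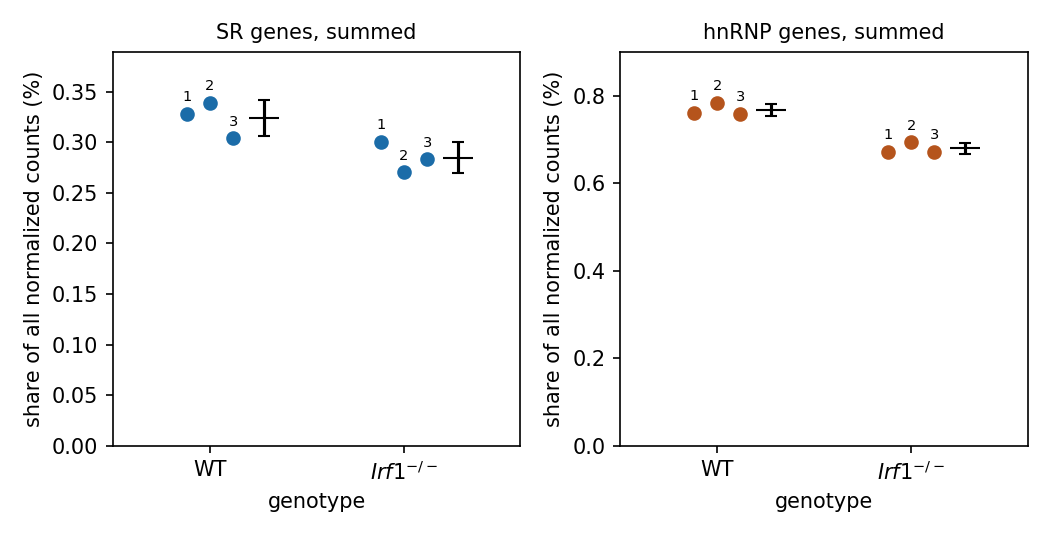
Share of all normalized counts taken by the 11 SR genes (left) and the 21 hnRNP genes (right), in percent on the vertical axis from 0, by genotype on the horizontal axis. Numbered points are mice and black bars are mean ± SD, and the hnRNP shares of WT mice (0.759% to 0.784%) lie above those of *Irf1-/-* mice (0.672% to 0.694%).

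The SR genes without overlap between genotypes include the classic exonic enhancer binders. *Srsf2* (SC35) acts in constitutive and alternative splicing and in the release of paused polymerase. It had 26608, 29662, and 22305 normalized counts in WT HSCs and 18936, 20247, and 18396 in *Irf1-/-* HSCs. The genotypes did not overlap, and WT mice varied more among themselves (SD 3696) than *Irf1-/-* mice (SD 952). Its log2 fold change was −0.44 (SE 0.105, adjusted *P* = 0.0357, limma), a mean of 73.3% of WT. The call held without WT mouse 3 or *Irf1-/-* mouse 2 and was lost without any other mouse (adjusted *P* between 0.0054 and 0.179 over the 6 fits, highest without *Irf1-/-* mouse 3) and in limma without the trend (0.316). *Mfsd11*, a gene that overlaps *Srsf2* and whose reads could be mixed with it if strand was not used in counting, had a log2 fold change of 0.00026 (−0.03 under median centring).

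*Srsf1* (ASF/SF2), a splicing activator that also works in export and translation, had 17006, 17575, and 15142 normalized counts in WT and 14503, 12945, and 13478 in *Irf1-/-* HSCs. *Srsf3* (SRp20), the smallest SR protein and an adaptor for mRNA export, had 26484, 28736, and 24586 in WT and 21473, 21882, and 21185 in *Irf1-/-* HSCs. For both genes, every *Irf1-/-* mouse was below every WT mouse, and WT mouse 3 was the lowest WT mouse. The log2 fold changes were −0.28 for *Srsf1* (SE 0.089, adjusted *P* = 0.117, limma) and −0.30 for *Srsf3* (SE 0.087, adjusted *P* = 0.0807, limma), neither past the threshold. *Srsf9*, a close relative of *Srsf1*, was the other SR gene without overlap, with 6595, 6623, and 6460 in WT and 5440, 6375, and 5679 in *Irf1-/-* HSCs. *Irf1-/-* mouse 2 came close to the WT range, and the log2 fold change of −0.17 had an adjusted *P* of 0.364 (limma).

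*Srsf7* (9G8), an export adaptor with a zinc knuckle, was the most abundant SR transcript by normalized counts, with 32908, 33867, and 26375 in WT and 28159, 26283, and 25507 in *Irf1-/-* HSCs. Its groups overlapped through WT mouse 3 and *Irf1-/-* mouse 1, and without either mouse the overlap ended. *Srsf6*, *Srsf4*, and *Srsf10* overlapped only because of WT mouse 3, which had 13795, 1922, and 5627 normalized counts of them. WT mice 1 and 2 had 16296 and 19849 of *Srsf6* and 7406 and 7924 of *Srsf10*, a splicing repressor when dephosphorylated, whereas *Irf1-/-* mice ranged from 14069 to 14873 and from 5608 to 6469. The log2 fold changes of *Srsf6* and *Srsf10* were −0.20 and −0.19. They were −0.32 and −0.34 without WT mouse 3, and −0.06 and −0.09 without WT mouse 2. *Srsf12*, a relative of *Srsf10*, was scarce (71.7 to 156 normalized counts) and its interval was wide (−1.02 to 0.38).

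*Srsf5* and *Srsf11* were level between genotypes. *Srsf5* (SRp40), whose mRNA responds early to growth signals, had 14468, 15351, and 14904 normalized counts in WT and 16070, 13271, and 15124 in *Irf1-/-* HSCs. *Srsf11* (p54) had 11088, 11388, and 10393 in WT and 11485, 10166, and 10748 in *Irf1-/-* HSCs. In both, *Irf1-/-* mouse 1 was the highest and *Irf1-/-* mouse 2 the lowest of all 6 mice, and the log2 fold changes were −0.01 (95% interval −0.21 to 0.18) and −0.02 (−0.20 to 0.16). Without *Irf1-/-* mouse 2 they were 0.06 and 0.02, and without *Irf1-/-* mouse 1 both were −0.07.

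The hnRNP A/B and D proteins pair RNA recognition motifs with a glycine-rich tail. *Hnrnpa1*, the best known exon silencer, had 14714, 15729, and 15211 normalized counts in WT and 11886, 13423, and 12418 in *Irf1-/-* HSCs. *Hnrnpa2b1*, which binds related sites and sorts RNAs, had 43114, 47030, and 45487 in WT and 39348, 38473, and 36789 in *Irf1-/-* HSCs. Neither gene overlapped between genotypes, and the mutant means were 82.6% and 84.5% of WT. Their log2 fold changes were −0.28 (SE 0.084, adjusted *P* = 0.0991) and −0.24 (SE 0.087, adjusted *P* = 0.166) in limma.

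*Hnrnpab*, which binds AU-rich elements and single-stranded DNA, had 24797, 25742, and 21828 normalized counts in WT and 18094, 20320, and 19377 in *Irf1-/-* HSCs. *Hnrnpd* (AUF1), which marks AU-rich transcripts for decay, had 10055, 10242, and 11066 in WT and 8584, 8267, and 8473 in *Irf1-/-* HSCs. The genotypes were separate for both, and *Hnrnpd* varied little within the mutant (SD 161). Their log2 fold changes, −0.32 for *Hnrnpab* (SE 0.092, adjusted *P* = 0.0778, limma) and −0.31 for *Hnrnpd* (SE 0.082, adjusted *P* = 0.0606, limma), were the lowest of the hnRNP family in the fit with all mice. Without WT mouse 3 they were −0.393 and −0.266, and *Hnrnpu* was lower than both (−0.398). *Hnrnpdl*, a close relative of *Hnrnpd*, had 6550, 6257, and 7467 in WT and 6493, 4922, and 6165 in *Irf1-/-* HSCs, so that *Irf1-/-* mouse 2 was the lowest and *Irf1-/-* mouse 1 lay inside the WT range. *Phykpl*, which overlaps *Hnrnpab*, had a log2 fold change of 0.02 (−0.01 under median centring). Protein-coding genes also overlap *Srsf9* (*Gatc*), *Hnrnpd* (*4930524J08Rik*), *Hnrnpdl* (*Enoph1*), *Hnrnpf* (*4933440N22Rik*), *Hnrnph3* (*Rufy2*), *Hnrnpk* (*Rmi1*), *Hnrnpll* (*4933407O12Rik*), *Hnrnpu* (*Cox20*), and *Hnrnpa1l2-ps2* (*Cdh18*), and reads could be mixed there too.

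The remaining A-type genes were less abundant. *Hnrnpa3* had 728, 801, and 822 normalized counts in WT and 721, 614, and 725 in *Irf1-/-* HSCs, without overlap but with WT mouse 1 and *Irf1-/-* mouse 3 almost level. *Hnrnpa0* ranged from 520 to 628 in WT and from 490 to 664 in *Irf1-/-* HSCs. *Hnrnpa1l2-ps2*, which carries a pseudogene name, had 3.11 to 34.1 normalized counts and allows no statement on its direction. *Hnrnpa1* and *Hnrnpa3* have many processed copies in the genome, and reads that fit a copy as well as the gene may have been lost or split.

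*Hnrnpu* (SAF-A), which ties chromatin to nascent RNA, had 66068, 70457, and 55027 normalized counts in WT and 47887, 58499, and 49586 in *Irf1-/-* HSCs. *Hnrnpm*, a silencer with GU-rich sites, had 31036, 33590, and 26487 in WT and 23321, 29475, and 24035 in *Irf1-/-* HSCs. Both overlapped because *Irf1-/-* mouse 2 exceeded WT mouse 3, and the overlap ended without either mouse. *Hnrnpf*, which binds G-runs, had the same arrangement, with 24551 in WT mouse 3 and 26614 in *Irf1-/-* mouse 2. The log2 fold changes of *Hnrnpu*, *Hnrnpm*, and *Hnrnpf* were −0.29, −0.25, and −0.23 (−0.13 for *Hnrnpf* without WT mouse 2), with adjusted *P* values of 0.203, 0.293, and 0.312 (limma). *Hnrnpu* passed the threshold without WT mouse 3 (adjusted *P* = 0.0408, limma).

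*Hnrnpc*, which measures nascent RNA and guards against splicing into Alu-like uridine tracts, varied within the mutant, with 16661, 24905, and 20966 normalized counts against 24526, 26055, and 20775 in WT. Leaving out *Irf1-/-* mouse 1 brought its log2 fold change from −0.20 to −0.05, and leaving out mouse 2 brought it to −0.34. The G-run binder *Hnrnph1* had 10551, 11779, and 11010 in WT and 9632, 8544, and 10492 in *Irf1-/-* HSCs, with every mutant mouse below WT. Its relatives differed, since *Hnrnph2* overlapped through *Irf1-/-* mouse 2 alone (11029), and *Hnrnph3* had 1781 ± 33.9 in WT and 1788 ± 66.9 in *Irf1-/-* HSCs (mean ± SD, *n* = 3 each).

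The KH-domain protein gene *Hnrnpk* was the most abundant member, with 66390, 71804, and 66892 normalized counts in WT and 61011, 64650, and 61884 in *Irf1-/-* HSCs. *Hnrnpl*, which binds CA repeats, had 10670, 10724, and 11640 in WT and 10427, 9686, and 9669 in *Irf1-/-* HSCs, and *Hnrnpr*, which acts in RNA transport and transcription, had 10462, 11243, and 10331 in WT and 8923, 9829, and 8999 in *Irf1-/-* HSCs. All 3 genes were without overlap, with *Irf1-/-* mouse 1 just under WT mouse 1 for *Hnrnpl*. Their log2 fold changes were −0.13, −0.15, and −0.21 with adjusted *P* values of 0.556, 0.420, and 0.227 (limma). *Hnrnpll*, the *Hnrnpl* relative that switches CD45 exons in lymphocytes, had 6072, 6260, and 4884 in WT and 5138, 5070, and 4519 in *Irf1-/-* HSCs, with WT mouse 3 inside the mutant range. *Hnrnpul1* and *Hnrnpul2*, relatives of *Hnrnpu* that act in DNA repair, had log2 fold changes of −0.07 and −0.05 with intervals on both sides of 0, *Hnrnpul1* was at −0.01 without *Irf1-/-* mouse 3, and *Hnrnpul2* turned without WT mouse 2 (0.03).

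**Figure D3:**
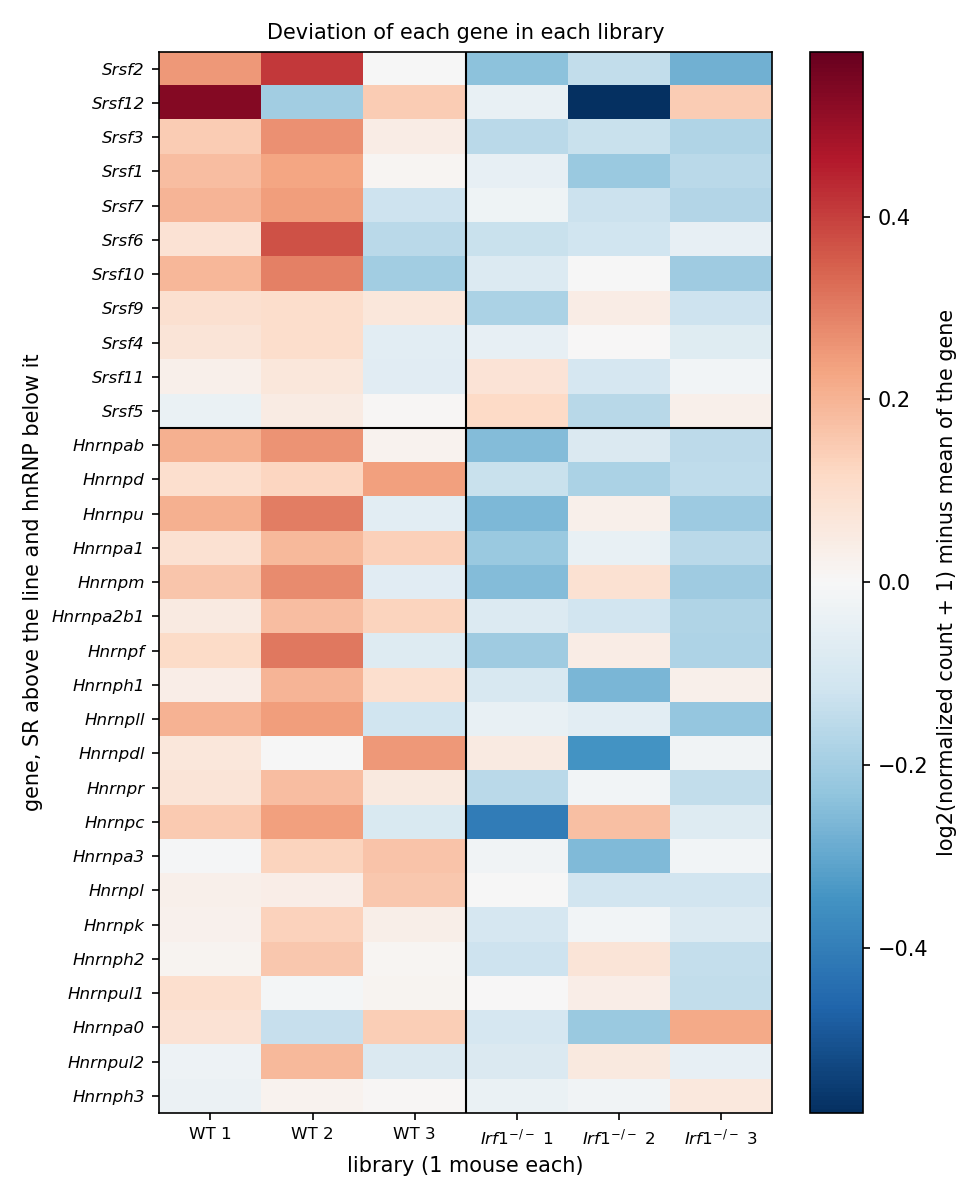
Deviation of log2(normalized count + 1) from the mean of each gene (color scale, log2 units) for 31 SR and hnRNP genes (vertical axis) in each of the 6 libraries (horizontal axis, 1 mouse each). WT mouse 2 is the highest library for 21 of the 32 genes and WT mouse 3 the lowest WT library for 18, and *Hnrnpa1l2-ps2* is not drawn.

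The differences were uneven among mice. WT mouse 2 was the highest library for 8 of 11 SR and 13 of 21 hnRNP genes, and *Irf1-/-* mouse 2 was the highest for 0 of either. WT mouse 3 was the lowest WT mouse for 9 of 11 SR and 9 of 21 hnRNP genes. The mean deviation of SR genes from their own 6-library mean was 0.16, 0.17, and −0.03 in WT and −0.07, −0.14, and −0.10 in *Irf1-/-* HSCs (log2), so that WT mouse 3 sat near the mutants. Over all genes tested this mean deviation was not level either, at −0.07, −0.08, and 0.11 in WT and 0.07, −0.09, and 0.05 in *Irf1-/-* HSCs. There WT mouse 3 was the highest library. For the 20 hnRNP genes other than *Hnrnpa1l2-ps2* it was 0.08, 0.15, and 0.05 in WT and −0.12, −0.06, and −0.10 in *Irf1-/-* HSCs, with all WT mice above 0 and all mutants below. Without WT mouse 3 the SR median log2 fold change was −0.32 and 6 members had an adjusted *P* under 0.05 in limma, *Srsf1*, *Srsf2*, *Srsf3*, *Srsf7*, *Hnrnpab*, and *Hnrnpu*, in a fit that placed 3.14% of all genes lower, against 1.49% with all mice. In that fit 17 members had an unadjusted *P* under 0.05, all lower (background 11.5%). Without WT mouse 1 or 2 or *Irf1-/-* mouse 1 or 3, 0 members had an adjusted *P* under 0.05 in limma. These fits placed only 0.804%, 0.735%, 0.908%, and 0.758% of all genes lower at that threshold, so 0 of 32 members says little. In the same order, 8, 8, 8, and 7 members had an unadjusted *P* under 0.05 (backgrounds 5.58%, 5.10%, 6.17%, and 5.10%). Without *Irf1-/-* mouse 2, 1 member, *Srsf2*, had an adjusted *P* under 0.05 (background 1.53%), and 13 had an unadjusted *P* under 0.05 (background 10.03%).

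Levels of different genes were compared per kilobase of the longest protein-coding transcript in GENCODE vM1, which held 31 of the 32. These lengths ran from 1.122 kb for *Hnrnpa1* to 5.726 kb for *Hnrnpul2*, with 5.15 kb for *Hnrnpa3*. The order depends on them, and reads of *Hnrnpa1* and *Hnrnpa3* may be lost to processed copies. In WT HSCs the order of normalized counts per kilobase began with *Hnrnpk* (23017 ± 1007, mean ± SD, *n* = 3), *Hnrnpu* (16465 ± 2050), *Srsf2* (13792 ± 1946), *Srsf7* (13721 ± 1802), and *Hnrnpa1* (13563 ± 452). *Hnrnpk* stood apart from the rest, while *Srsf2*, *Srsf7*, and *Hnrnpa1* differed by less than their spread. *Srsf12* (41.9 ± 10.7), *Hnrnpul2* (86.2 ± 8.70), *Hnrnpa3* (152 ± 9.55), and *Hnrnpa0* (218 ± 21.3) closed the order. In *Irf1-/-* HSCs *Srsf2* had 10107 normalized counts per kilobase, below *Srsf7* (11776) and *Hnrnpa1* (11208).

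SR proteins enter the nucleus and take up their place in speckles through phosphorylation by SRPK and CLK kinases, and 0 of 15 genes for their kinases, phosphatases, and importers had an adjusted *P* under 0.05 in limma, edgeR, or DESeq2. An unadjusted *P* under 0.05 was reached by 2 of them downward and 1 upward in limma, and their median log2 fold change was 0.04, which turned without WT mouse 3 (−0.02) or *Irf1-/-* mouse 1 (−0.02) or 3 (−0.0038). *Clk1*, the kinase that releases SR proteins from speckles, had 7913, 7706, and 9545 normalized counts in WT and 10964, 8201, and 11819 in *Irf1-/-* HSCs. The phosphatase subunit genes *Ppp1ca* and *Ppp1cb* had log2 fold changes of −0.26 and −0.22 and did not overlap between genotypes, and *Dyrk1a*, another SR kinase, had 0.13 (0.0025 without *Irf1-/-* mouse 1). *Clk1* had an adjusted *P* of 0.275 (limma), or 0.0495 without *Irf1-/-* mouse 2.

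The nuclear-retained RNAs *Malat1* and *Neat1*, which lie at speckles and paraspeckles, had *Irf1-/-* mouse 2 as the lowest mutant, as did *Clk1*, *Srsf5*, and *Srsf11*. *Malat1* had 41422, 37595, and 44332 normalized counts in WT and 64718, 40588, and 51564 in *Irf1-/-* HSCs. *Neat1* had 3604, 3294, and 4154 in WT and 5702, 3831, and 4959 in *Irf1-/-* HSCs. Both overlapped between genotypes, with adjusted *P* values of 0.260 and 0.157 in limma. Without *Irf1-/-* mouse 2 both passed (0.0470 and 0.0332, limma), and *Neat1* also passed in DESeq2 (0.0466). Without *Irf1-/-* mouse 1 the log2 fold changes were 0.16 and 0.25, and the part of RNA quality or nuclear RNA content in these values was not tested. Immediate-early and heat shock genes, which respond to handling of cells, had 1 of 13 called, the transcription factor gene *Egr1*, with 2744, 3234, and 2778 in WT and 6247, 5935, and 5471 in *Irf1-/-* HSCs (log2 fold change 1.01, adjusted *P* = 3.89e-05, limma, or 0.0511 without the trend). WT mouse 3 stood apart for this list, with a mean deviation of −0.48 (log2) against 0.13 and 0.14 in WT mice 1 and 2, and the list median of 0.03 ran from −0.08 (without WT mouse 3) to 0.16 (without WT mouse 2), with −0.0046 under median centring.

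Other RNA-binding splicing regulators were described by lists. For the counts of these and the other lists, the backgrounds lower at an adjusted *P* under 0.05 were 1.49% in limma, 1.53% in edgeR, and 3.77% in DESeq2. At an unadjusted *P* under 0.05 in limma they were 8.07% lower and 8.38% higher. Among 21 SR-related proteins, 15 were lower (11 under quantile normalization, 16 under median centring) with a median log2 fold change of −0.04, and 0 had even an unadjusted *P* under 0.05 in limma, edgeR, or DESeq2. Without *Irf1-/-* mouse 2 only 10 were lower and the median was 0.0070, and without *Irf1-/-* mouse 1 it was −0.10. Their lowest was *Pnn* (−0.19, but −0.08 without *Irf1-/-* mouse 2), a speckle protein, followed by *Luc7l2* (−0.17, but 0.03 without *Irf1-/-* mouse 2), a U1 partner, and their highest were *Rbm39* (0.12, between 0.07 and 0.19 with a mouse left out) and *Acin1* (0.10, between 0.05 and 0.14). Among 19 hnRNP proteins with other gene names, 16 were lower (17 under quantile normalization or median centring, 13 without WT mouse 3, and 14 without *Irf1-/-* mouse 2) with a median of −0.18 (−0.10 under quantile normalization), 0 passed in limma or edgeR and 2 in DESeq2, and 5 had an unadjusted *P* under 0.05 in limma. *Tardbp*, which represses cryptic exons, had 7725, 9240, and 7718 normalized counts in WT and 6938, 6618, and 6677 in *Irf1-/-* HSCs without overlap, and *Ptbp3*, a pyrimidine-tract repressor, had a log2 fold change of −0.25 (−0.16 without *Irf1-/-* mouse 2). The cold-inducible *Cirbp* (0.19, between 0.03 and 0.46 with a mouse left out, with an adjusted *P* of 0.0499 in limma without WT mouse 3) and *Taf15* (0.11, but −0.01 under quantile normalization and −0.06 without WT mouse 2) were the highest of that list. Of 22 other splicing regulators, 14 were lower (15 under median centring) with a median of −0.08 (−0.19 without WT mouse 3, −0.05 without WT mouse 2, and −0.03 without WT mouse 1), 0 passed in limma or edgeR and 2 in DESeq2, and 3 had an unadjusted *P* under 0.05 in limma. The extremes of that list, *Esrp2* (1.28, between 0.21 and 2.19 with a mouse left out), *Zrsr1* (0.41, 0.28 to 0.55), *Nova1* (−0.75, −1.56 to −0.12), and *Esrp1* (−0.73, −1.15 to −0.22), were all scarce, with at most 39.8 normalized counts in any library apart from *Zrsr1* (65.4 to 122).

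SR proteins and hnRNPs act on the core spliceosome. Of 15 Sm and LSm ring genes, 13 were lower (12 under quantile normalization, 14 under median centring) with a median log2 fold change of −0.21, and 1 passed in limma and edgeR and 3 in DESeq2. The limma call was *Snrpd1*, an Sm ring subunit, with 4259, 3862, and 3991 normalized counts in WT and 2728, 3384, and 2950 in *Irf1-/-* HSCs (−0.42, adjusted *P* = 0.0359, limma, between 0.0218 and 0.157 with a mouse left out, and 0.278 without the trend). All 19 U1 and U2 snRNP genes were lower in limma, though 17 of 19 under quantile normalization, with a median of −0.16, and 0 passed in limma or edgeR and 2 in DESeq2, with 7 at an unadjusted *P* under 0.05 in limma. *Snrpa1* (−0.35) and *Phf5a* (−0.32, but −0.19 without *Irf1-/-* mouse 1) of the U2 particle were their lowest, while *Snrnp70* of U1 and *Sf3b1* of U2 were nearest to 0 (−0.03 and −0.04), and both turned under quantile normalization (0.0069 and 0.06) and without *Irf1-/-* mouse 2 (0.04 and 0.0025). Of 26 tri-snRNP and Prp19 complex genes, 21 were lower (19 under quantile normalization) with a median of −0.15 (−0.08 without WT mouse 2), 0 passed in limma or edgeR and 2 in DESeq2, and 8 had an unadjusted *P* under 0.05 in limma. *Usp39* (−0.43) and *Ppih* (−0.32) were lowest there, and *Ddx23* (0.19, between 0.11 and 0.33 with a mouse left out) and *Prpf19* (0.18, but −0.07 without WT mouse 1) highest.

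Exon junction and nonsense-mediated decay factors, which act on the unproductive isoforms of SR and hnRNP genes, numbered 15, with 12 lower (13 under median centring) and a median log2 fold change of −0.08 (−0.16 without *Irf1-/-* mouse 3). In limma and edgeR 0 of them passed, in DESeq2 1 passed in each direction, and 4 downward and 1 upward had an unadjusted *P* under 0.05 in limma. The endonuclease gene *Smg6* (0.29) was above WT in all 3 mutants, with 4443, 4592, and 4511 normalized counts in WT and 5865, 5156, and 5619 in *Irf1-/-* HSCs. *Upf3a* (−0.40) and the kinase gene *Smg1* (−0.29) were lowest, and *Casc3* stood at 0.06 (0.0081 without WT mouse 3).

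Cell-cycle genes had lower medians than the SR and hnRNP genes, under every scaling tried. Of the S phase list, 43 of 43 genes were lower (42 without WT mouse 2) with a median log2 fold change of −0.41, and of the G2M list 54 of 54 (51 to 54 with a mouse left out) with −0.44 (−0.29 without *Irf1-/-* mouse 3), at 8 and 10 genes with an adjusted *P* under 0.05 in limma and 29 and 30 in DESeq2. These limma counts ranged from 1 to 27 and from 0 to 31 with a mouse left out, both highest without WT mouse 3, and were 0 and 0 without the trend. The S phase list, led by the helicase subunit *Mcm6*, took 0.721%, 0.764%, and 0.635% of normalized counts in WT and 0.597%, 0.570%, and 0.522% in *Irf1-/-* HSCs. The G2M list, led by the tubulin *Tubb4b*, took 0.629%, 0.622%, and 0.535% in WT and 0.517%, 0.495%, and 0.393% in *Irf1-/-* HSCs. WT mouse 3 was the lowest WT mouse for both lists, as it was for the summed SR share. Neither list holds an SR or hnRNP gene of the families described here, and the part of cell cycle state in the lower SR and hnRNP levels was not tested.

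Megakaryocyte and erythroid markers also differed. All 5 megakaryocyte markers were lower in mean, *Pf4* and *Gp1bb* past the threshold in limma, edgeR, and DESeq2 but not in limma without the trend (4 were lower without WT mouse 2), and together they took 0.0964%, 0.118%, and 0.0970% of normalized counts in WT and 0.0878%, 0.05003%, and 0.0763% in *Irf1-/-* HSCs. *Itga2b*, the most abundant of them, had 33871, 45662, and 31700 normalized counts in WT and 30846, 18422, and 26698 in *Irf1-/-* HSCs. Of 4 erythroid markers tested, 3 were lower in mean and *Klf1* and *Car1* passed in limma, against 1 each in edgeR and DESeq2, 0 in limma without the trend, and 0 without *Irf1-/-* mouse 2 (0.0700 and 0.0611). The *Klf1* call was also lost without WT mouse 1 (0.119) or 2 (0.107) or *Irf1-/-* mouse 1 (0.0576), and the *Car1* call without *Irf1-/-* mouse 3 (0.0658), all in limma. The most abundant erythroid marker was *Tfrc* (1526, 1538, and 1291 in WT and 1403, 873, and 1231 in *Irf1-/-* HSCs). *Irf1-/-* mouse 2 had the lowest summed share in both lists, as it did for SR genes, whereas it had the highest hnRNP share among the mutants, and the part of these lists in the SR and hnRNP values was not tested.

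Promoter sequence of both families was described next. RefSeq windows of 300 bases, from 250 before to 50 after the start of a gene (GRCm38.p6), were found for 11 SR genes (14 windows) and 19 hnRNP genes (28 windows). They were rich in GC, with a median of 69% for SR and 64.8% for hnRNP windows, against 59% for windows of genes tested and 52.7% for all 32851 windows. On either strand, the CCAAT box was present in 4 SR windows (28.6%) and 18 hnRNP windows (64.3%), against 37.6% of windows of genes tested and 37.4% of all. The GC box GGGCGG was present in 13 SR windows (92.9%) and 21 hnRNP windows (75%), against 55.1% and 35.7%. The ETS letters CCGGAAG were in 6 SR (42.9%) and 4 hnRNP windows (14.3%), against 14.3% and 8.86%. These SR windows belong to *Srsf4*, *Srsf5*, *Srsf7*, and *Srsf11*. The E2F letters TTTCCCGC were in 2 SR (14.3%) and 2 hnRNP windows (7.14%), against 1.68% and 1.07%. The CRE letters TGACGT were in 3 SR (21.4%) and 6 hnRNP windows (21.4%), against 9.94% and 7.51%. The YY1 letters AAGATGGCG were in 0 of either, against 2.33% and 1.40%. NRF1, E-box, and TATA letters were also searched. The IRF letters, 2 GAAA runs spaced by 2 bases, were in 0 SR and 0 hnRNP windows, against 3.10% and 3.44%, which says only that these letters are not in these windows.

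To show what these letters look like in the genes with the lowest adjusted *P*, the 100 bases before the start are printed 5′ to 3′ on the strand of the gene, with CCAAT and GGGCGG or their reverse complements in capitals. *Srsf2* lies at chr11:116853095-116853194 on the minus strand, *Hnrnpd* at chr5:99978939-99979038 on the minus strand, *Hnrnpab* at chr11:51606882-51606981 on the minus strand, *Srsf3* at chr17:29032560-29032659 on the plus strand, and *Hnrnpa1* at chr15:103240297-103240396 on the plus strand. The box count is 3 CCAAT and 1 GGGCGG for *Hnrnpa1*, 2 CCAAT for *Hnrnpab*, 1 of each for *Srsf2*, 1 CCAAT for *Srsf3*, and 2 GGGCGG for *Hnrnpd*.
*Srsf2*: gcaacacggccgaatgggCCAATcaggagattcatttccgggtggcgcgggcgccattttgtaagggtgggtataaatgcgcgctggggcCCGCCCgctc
*Hnrnpd*: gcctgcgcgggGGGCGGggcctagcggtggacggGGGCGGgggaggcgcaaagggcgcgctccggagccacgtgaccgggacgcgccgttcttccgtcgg
*Hnrnpab*: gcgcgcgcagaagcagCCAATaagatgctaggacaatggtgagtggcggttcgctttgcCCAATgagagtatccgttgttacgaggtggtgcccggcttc
*Srsf3*: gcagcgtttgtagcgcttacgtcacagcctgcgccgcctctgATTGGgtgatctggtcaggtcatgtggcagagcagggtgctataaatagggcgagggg
*Hnrnpa1*: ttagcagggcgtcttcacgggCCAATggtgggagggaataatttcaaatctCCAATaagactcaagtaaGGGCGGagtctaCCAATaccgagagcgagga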

How the data were processed

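RNA of a small number of sorted HSCs per mouse had been made into cDNA with SMART-Seq v4 and into Nextera XT libraries without molecular identifiers. On Galaxy, reads were trimmed (Trim Galore!), aligned (HISAT2), and assigned to genes (Htseq-count) by the authors. The unit deposited is a signal, namely reads per gene scaled by DESeq2 with 1 factor for each library. The submitters' notes name build mm39. Program versions, annotation, and strand setting are not given in the sources used here. Whole reads were recovered for 100% of values (tolerance 0.1). Replicate numbers 1 to 3 follow the sample titles, and another label numbers the same libraries 2, 3, and 4.

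The main test was limma 3.58.1 (R 4.3.3, eBayes with trend) on log2(normalized count + 1), for genes with a mean of at least 10, with Benjamini-Hochberg adjustment over all of them. Alternatives were edgeR 4.0.16 and DESeq2 1.42.0 on recovered reads, pseudocounts of 0.5 and 5, no filter or a mean of at least 100, no trend, quantile, median, and TMM scaling, a replicate block, and each library left out. Scripts were tested on simulated data. Cell-cycle lists came from Seurat 5.3.0, figures and tables from Python 3.11.15, matplotlib 3.10.9, and pandas 2.3.3. Promoters are RefSeq GRCm38.p6 and transcript lengths GENCODE vM1, joined by symbol only. Named genes are *Irf1*, every member, and, of each list of splicing, decay, or stress genes, those at an adjusted *P* under 0.05 or else the 2 highest and 2 lowest, and of marker and cell-cycle lists the most abundant or near-absent genes. Other markers and overlapping genes were named after their values were seen. Members and lists were chosen with earlier results of these data known.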

Additional observations from a re-analysis of the deposited data

How the results depend on the processing

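The main limma fit called 167 genes higher and 166 lower. Without the trend it called 7 and 33, DESeq2 called 286 higher, and an adjusted *P* under 0.05 alone gave 301 higher, 260 lower, and 1 member. With each library left out, the counts ran from 83 to 305 higher and from 105 to 265 lower, and 0 members were called in any fit. The cause was not tested. The hnRNP median log2 fold change was −0.15 under quantile normalization, the SR median ran from −0.32 to −0.15 with a library left out, and the SR minus hnRNP difference from −0.0974 to 0.0551.

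Quantile normalization turned *Srsf11* (0.023), *Srsf5* (0.025), *Taf15* (−0.010), *Snrnp70* (0.0069), *Sf3b1* (0.064), and *Kit* (0.17), and median centring turned *Hnrnph3* (−0.026). With a library left out, log2 fold changes crossed 0 for *Srsf11* (−0.067 to 0.021), *Srsf5* (−0.073 to 0.065), *Hnrnpa0* (−0.19 to 0.031), *Hnrnpa1l2-ps2* (−0.55 to 1.00), *Hnrnph3* (−0.025 to 0.025), *Hnrnpul2* (−0.10 to 0.030), *Luc7l2* (−0.34 to 0.026), *Taf15* (−0.063 to 0.36), *Snrnp70* (−0.093 to 0.042), *Sf3b1* (−0.078 to 0.0025), *Prpf19* (−0.074 to 0.44), *Kit* (−0.066 to 0.028), and the overlapping genes *Mfsd11* (−0.076 to 0.040) and *Phykpl* (−0.070 to 0.10). The cause was not tested.

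Deviations from the genotype mean had same-number correlations of −0.094, 0.246, and 0.147 between WT and *Irf1-/-* libraries. Correlations between different numbers ran from −0.326 (WT mouse 3 with *Irf1-/-* mouse 2) to 0.251 (WT mouse 3 with *Irf1-/-* mouse 1). With 3 mice per genotype, these values cannot decide whether replicate numbers pair the libraries. With the replicate number as a block, limma called 219 genes higher, 196 lower, and 0 members, and 8 members had an adjusted *P* under 0.05, in a fit where 3.49% of all genes were lower at that threshold (1.49% without the block) and the S phase and G2M lists rose to 29 and 42 genes.

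With 3 mice per genotype and no molecular identifiers, small differences are bounded by the variation between mice. Genes under the stricter mean of 100 have no value there, and DESeq2 gave no adjusted *P* for 4395 genes, 1 of them a member. Splicing, protein, and phosphorylation were not analysed here.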
